A study of Mus musculus with 10 samples.

Results

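The expression of 9 genes known for their roles in neurons and glia was followed in cultured tumour cells taken from 3 sites of mice bearing a mammary carcinoma. The 9 genes were Nptx1, Synpo, Map2, Eno2, Tubb3, Nes, Mbp, Cnp and Gja1, and all probes of the non-normalized table that the platform annotation assigns to these symbols were used. This gave 24 of the 45281 probes on the array and 9 of the 9486 genes with a detected probe. The genes were selected on the probe intensities of these same arrays, since they were proposed with the differences between the groups already known. Their values, differences, intervals and calls are therefore a description, and none of them is read as a test of these genes.

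The study set out to find genes whose expression differs in breast cancer cells that reach the brain. All groups were derived from the 4T1 line of mouse mammary carcinoma cells, and per the study's methods the parental cells carried a luciferase reporter and were grown as tumours in female Balb/c mice aged 6 to 8 weeks at inoculation. The labels call the inoculation orthotopic and the methods subcutaneous. The recovered cells were kept in culture for 3 to 4 passages before RNA was extracted, so every group was cultured cells and not tissue. The groups were sublines from brain metastases (B, n = 4), from lung metastases (L, n = 3) and from primary tumours (P, n = 3), with 1 array for each subline. Per the study's methods each subline was isolated independently, and it is not said whether any came from the same mouse, so the spread between arrays is that between these sublines.

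Neurons communicate at synapses, where released transmitter acts on clustered receptors, and their long processes are held by microtubules and neurofilaments. Oligodendrocytes wrap axons in myelin, a stack of membrane compacted by dedicated proteins, and astrocytes couple to one another through gap junctions. Several of these genes are also used outside the nervous system, as Synpo is in kidney podocytes and Gja1 in heart muscle, so a reading from 1 of them does not name a cell type.

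Promoter sequences are shown for 3 of the genes because they stand for the range of the readings: Eno2, which was brighter in B; Tubb3, which was near background; and Gja1, which was bright in every group. RefSeq promoters (GRCm38.p6, 250 bases before to 50 after the start) were given for 6 of the 9 genes, namely Map2, Eno2, Tubb3, Nes, Cnp and Gja1, and not used for Nptx1, Synpo and Mbp. The Eno2 promoter lies at chr6:124769624-124769923 on the minus strand, that of Tubb3 at chr8:123411303-123411602 on the plus strand, and that of Gja1 at chr10:56377050-56377349 on the plus strand. Capitals mark E-boxes (CANNTG), the letters bound by basic helix-loop-helix factors, and GC boxes (GGGCGG, either strand), which did not overlap each other in these 3 promoters.
Eno2: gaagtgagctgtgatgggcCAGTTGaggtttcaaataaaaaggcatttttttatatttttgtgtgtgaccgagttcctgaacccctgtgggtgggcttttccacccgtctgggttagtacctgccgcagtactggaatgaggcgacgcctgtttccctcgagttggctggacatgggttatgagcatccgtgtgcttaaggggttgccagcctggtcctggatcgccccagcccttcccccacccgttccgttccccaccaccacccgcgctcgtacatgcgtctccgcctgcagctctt
Tubb3: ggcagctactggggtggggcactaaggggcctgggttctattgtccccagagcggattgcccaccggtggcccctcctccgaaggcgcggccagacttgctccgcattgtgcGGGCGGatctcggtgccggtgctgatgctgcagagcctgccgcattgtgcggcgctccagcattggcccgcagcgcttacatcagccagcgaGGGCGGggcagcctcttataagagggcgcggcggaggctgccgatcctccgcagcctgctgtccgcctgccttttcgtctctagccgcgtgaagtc
Gja1: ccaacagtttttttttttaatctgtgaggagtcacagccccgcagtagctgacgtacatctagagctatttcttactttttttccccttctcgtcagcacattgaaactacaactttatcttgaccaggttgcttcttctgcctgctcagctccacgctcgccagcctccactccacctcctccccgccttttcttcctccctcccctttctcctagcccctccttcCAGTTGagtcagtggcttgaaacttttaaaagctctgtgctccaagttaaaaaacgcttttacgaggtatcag
Eno2 and Gja1 each held 1 E-box and no GC box, and Tubb3 held 2 GC boxes and no E-box. Of 32851 mouse promoters of the same length, 72.3% held an E-box and 35.7% a GC box. The RE1 element, through which the repressor REST acts on neuronal genes, was searched on both strands as its left part TTCAGCACC and, separately, as its right part. These letters were found in 0.371% and 0.137% of all promoters and in none of the 6, which says only that they are not in these windows.

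Intensities were background-corrected and quantile-normalized, and values are log2 intensities. A probe was taken as detected where its detection p-value, set against the negative control probes of that array, did not exceed 0.01. Each group had between 14218 and 15563 probes detected per array (B 14796 to 15563, L 14764 to 14938, P 14218 to 14635). Cell type markers were read from the same arrays, from lists chosen with earlier results of these data known. None of 10 neuronal markers, which included Snap25, Syt1 and Rbfox3, was detected on any array, and their summed normalized intensity was 263 to 277 in B, 259 to 272 in L and 261 to 272 in P. None of 7 astrocyte markers (Gfap and Aqp4 among them), 8 oligodendrocyte markers (Mog, Olig2 and Sox10 among them) or 7 endothelial markers was detected on any array. The sums were 180 to 197 for astrocyte markers on B, 191 to 201 on L and 196 to 201 on P, and 201 to 210 for oligodendrocyte markers on B, 201 to 202 on L and 195 to 203 on P. Of 10 microglial and macrophage markers, only P2ry12 was detected, on 2 L arrays, and it was at least 1.17-fold lower in B than in L (adjusted p = 0.00465 from limma). Wherever a fold is given as a bound, the adjusted p is for the difference in normalized values and does not test the bound. Of 8 fibroblast and pericyte markers, Pdgfrb was detected on 1 B array, Thy1 on 1 P array, and Dcn on 1 B and 1 L array. Pdgfrb was highest in B3, at 6.25. Of 10 mammary epithelial markers, 8 were detected, 6 of them on all arrays, and Epcam and Krt5 on none. The summed intensity of the 10 was 24684 to 36965 in B, 32640 to 39728 in L and 26931 to 34523 in P. In B relative to P, by limma, the basal keratin gene Krt14 fell by 4.75 (SE 0.68, adjusted p = 0.00418), Cdh1 fell by 1.51 (adjusted p = 0.0403) and the tight junction gene Cldn7 fell by 1.10 (adjusted p = 0.0134). In B relative to L, by limma, Krt14 fell by 5.05 (adjusted p = 0.00322), Krt19 fell by 1.89 (adjusted p = 0.041) and Cldn7 fell by 0.91 (adjusted p = 0.0391). For Cldn7 the adjusted p was 0.0941 with the array number as a replicate block, to which B4 adds nothing since no L array shares its number. The other markers did not pass. Their differences from P were -2.85 for Cldn3, -1.93 for Cldn4, -1.01 for Krt19, 0.48 for Krt8 and 0.45 for Krt18. From L they were -2.95 for Cldn3, -2.80 for Cldn4, -1.41 for Cdh1, 0.35 for Krt8 and 0.46 for Krt18. B3 pulled down several B means. It read 4.92 for Cldn3, 6.64 for Cldn4, 6.29 for Krt19 and 8.32 for Cdh1. The other B arrays read 8.48 to 9.28, 10.28 to 11.89, 8.08 to 8.58 and 9.66 to 10.23. Krt14 was detected on only 2 of the 4 B arrays and read 7.55, 5.18, 4.75 and 7.16 in B1 to B4. The sizes of its differences thus rest partly on readings near background. Leaving out 1 array in turn, Cdh1 lost its call against P without B2, P1, P2 or P3 (differences -1.73 to -1.09), Cldn7 against P without P1 or P3 (-1.29 to -0.91) and against L without any of the 7 arrays (-1.11 to -0.68), and Krt19 against L without B1, B2, L1, L2 or L3 (-2.14 to -1.38). In a bulk culture, fewer cells of a type and less RNA per cell cannot be told apart.

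Of the 24 probes, 8 were detected on all 10 arrays, 4 on some and 12 on none. The 12 undetected probes read 53.8 to 106 intensity units before normalization and 4.39 to 5.52 afterwards. Every gene had at least 1 detected probe.

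**Figure D1:**
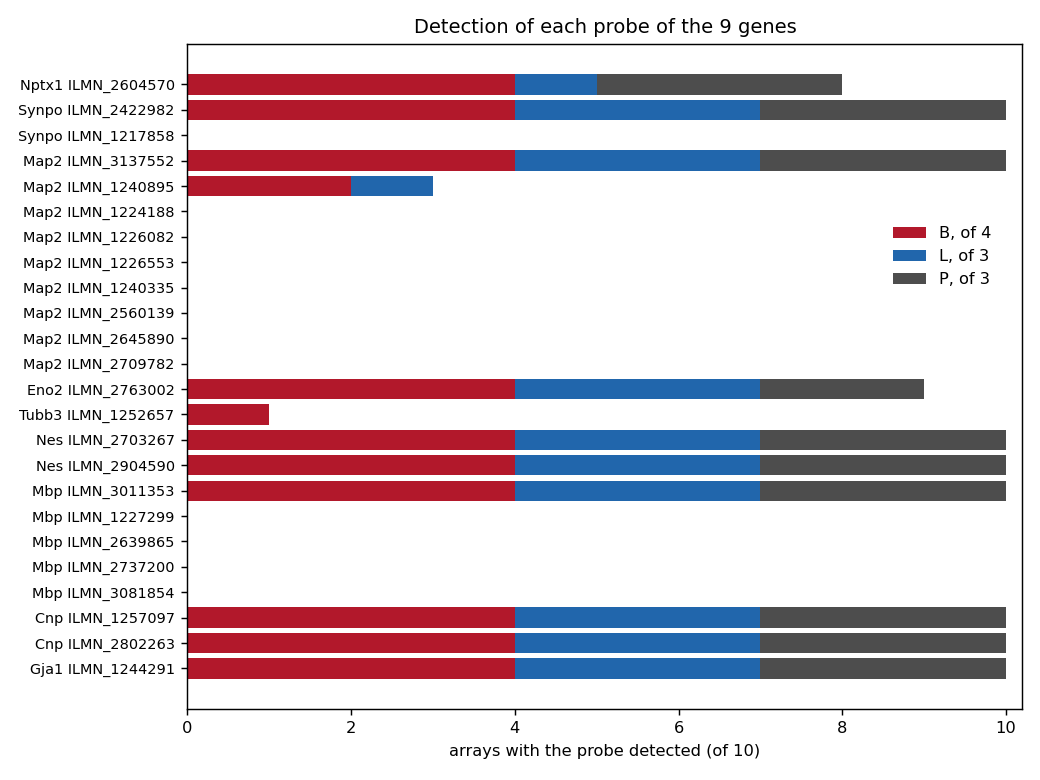
Number of arrays (x axis, of 10) on which each of the 24 probes (y axis) was detected, stacked by group B, L and P. Of 9 Map2 probes and 5 Mbp probes, 1 each was detected on all 10 arrays.

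Nptx1 encodes neuronal pentraxin 1, a secreted protein that clusters AMPA-type glutamate receptors at synapses. Its single probe read 9.36, 10.19, 9.05 and 8.06 in B1 to B4, 5.70, 5.39 and 6.40 in L1 to L3, and 6.40, 6.93 and 6.53 in P1 to P3. All 4 B arrays lay above every other array, with B2 the highest and B4 the lowest of them, and the P arrays lay at or above the L arrays. It was detected on all B and P arrays but on L3 alone among the L arrays. The mean was 9.16 ± 0.88 in B (SD, n = 4) against 6.62 ± 0.27 in P (SD, n = 3), a difference of 2.54 (SE 0.42, 95% interval 1.61 to 3.48) or 5.83-fold. Against L, with 5.83 ± 0.52 (SD, n = 3), the difference was 3.33 (SE 0.44, 95% interval 2.34 to 4.33), and 2.51 with no background correction. No fold is given there, since 1 of the 3 L arrays was above the detection limit. L lay 0.79 below P (difference -0.79, SE 0.25). The size depended on the processing: on the authors' processed values B exceeded P by 1.58 and L by 1.83. The 3 genes whose pattern over the 10 arrays was most like that of Nptx1, among 9485 others, were Tnrc6c, ATP6 and Fut8 (Pearson r 0.98, 0.98 and 0.97). These r values come from arrays in 3 groups of a few sublines, so they mostly carry the group levels.

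Synpo encodes synaptopodin, an actin-associated protein of dendritic spines and of podocytes. One of its probes read 11.05, 10.44, 11.29 and 11.08 in B1 to B4, 9.96, 9.80 and 9.70 in L1 to L3, and 8.62, 9.18 and 9.24 in P1 to P3. The 3 groups did not overlap: every B array was above every L array, and every L array above every P array. The difference of B was 1.95 (SE 0.24) over P, or 3.87-fold, and 1.15 (SE 0.21) over L, or 2.21-fold, and that of L over P was 0.80 (SE 0.19). The annotation assigns this probe to the gene symbol but gives no transcript record for it. The other probe, which has a transcript record, was detected on no array, with values of 4.54 to 5.02. The Synpo reading thus rests on the probe without a record. Actn1, an actinin of the kind that synaptopodin binds, averaged 12.74 in B and 12.90 in P and did not pass (adjusted p = 0.543 from limma). The patterns most like that of Synpo were those of Ech1, Mfge8 and Lrpap1 (r 0.99, 0.98 and 0.98 over 10 arrays).

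**Figure D2:**
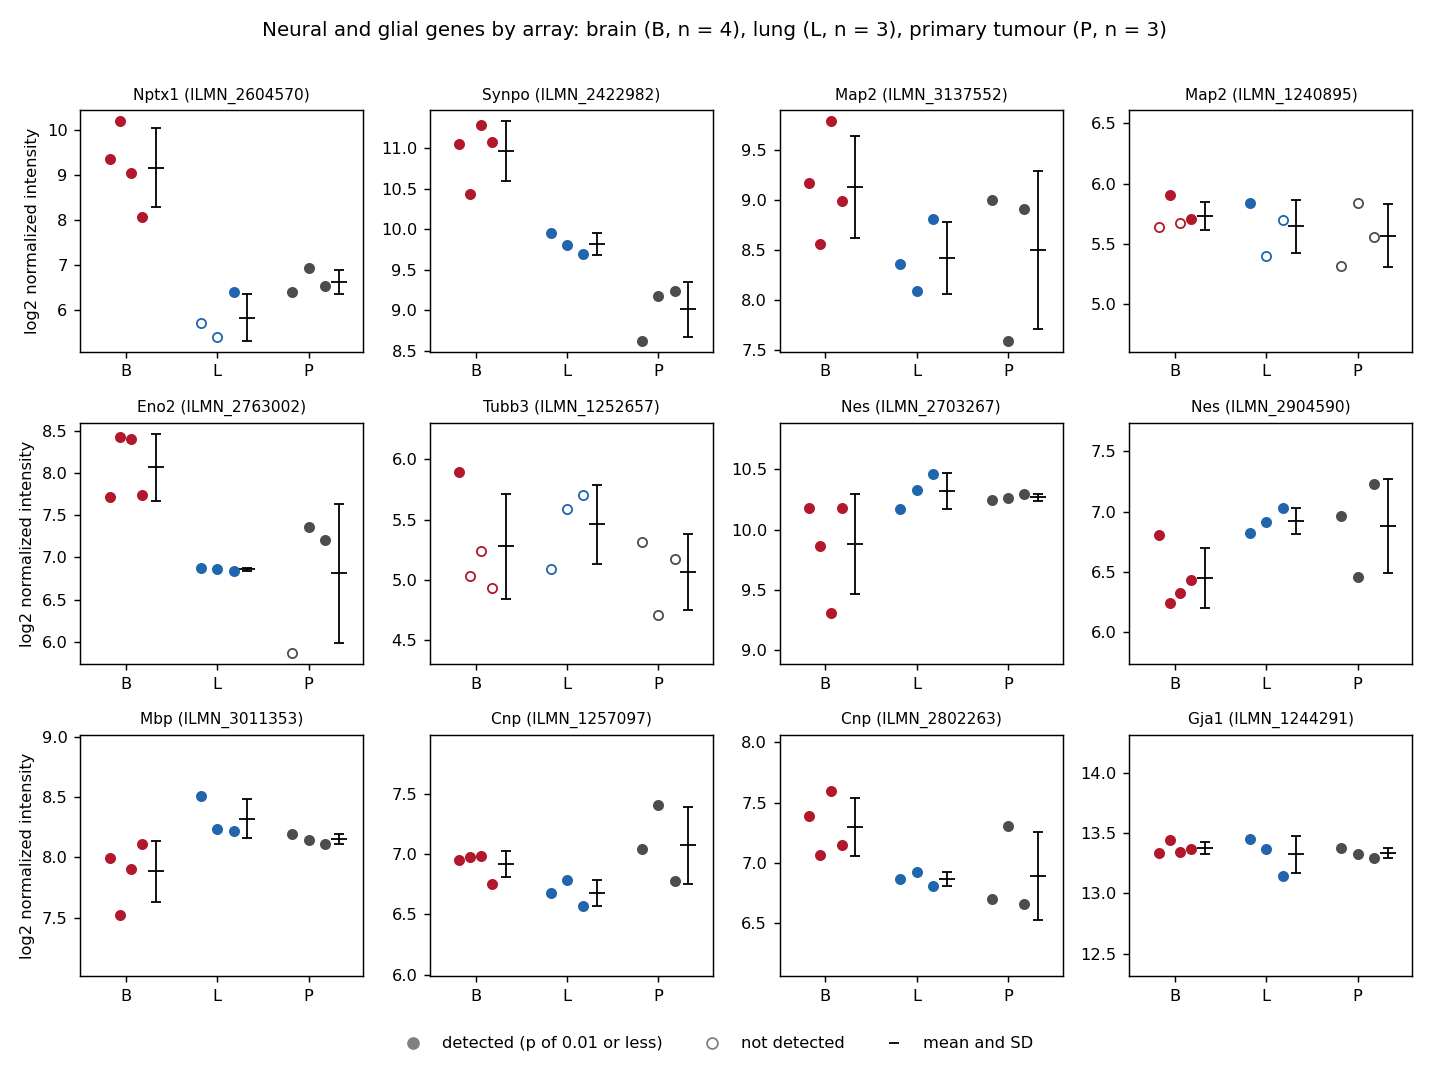
Log2 normalized intensity (y axis) of the 12 detected probes on each array by group (x axis: B, L, P), each panel with its own scale; filled points were detected, open points were not, and bars give the mean and SD. Nptx1, Synpo and Eno2 were higher on every B array than on any L or P array, whereas the 10 Gja1 values spanned 13.15 to 13.45.

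Among the genes of the neuronal cytoskeleton and metabolism, Eno2 stood higher in B. Eno2 encodes the gamma enolase, the glycolytic isoenzyme known as neuron-specific enolase. It read 7.72, 8.43, 8.40 and 7.74 in B1 to B4, 6.87, 6.86 and 6.84 in L1 to L3, and 5.86, 7.37 and 7.20 in P1 to P3. The B arrays did not overlap with the others, the L arrays were nearly identical, and P1, where the probe was not detected, was far below P2 and P3. The difference was 1.26 (SE 0.36, 95% interval 0.44 to 2.08) over P and 1.22 (SE 0.22) over L. Without P1 the first of these was 0.79, and on the authors' processed values the differences were 0.65 and 0.67. L and P differed by 0.05 (95% interval -0.71 to 0.80). Slc27a1, Mcee and Akr1c12 had the most similar patterns (r 0.95, 0.93 and 0.92 over 10 arrays). Eno3, the muscle enolase, averaged 11.11 in B and 11.60 in P and did not pass the test (adjusted p = 0.243 from limma).

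Map2 encodes a microtubule-associated protein of dendrites. Of its 9 probes, 1 was detected on all arrays, and it read 9.17, 8.56, 9.78 and 8.99 in B1 to B4, 8.36, 8.09 and 8.80 in L1 to L3, and 8.99, 7.59 and 8.90 in P1 to P3. The groups overlapped, with B3 the highest and P2 the lowest array. The difference was 0.63 (SE 0.38, 95% interval -0.22 to 1.48) over P, and 0.71 (SE 0.29, 95% interval 0.07 to 1.35) over L. A second probe was detected on B2, B4 and L1 only and lay between 5.32 and 5.91 throughout, and the 2 probes correlated at r = -0.22 over the 10 arrays. The other 7 probes, 5 of them assigned to the same transcript record as the probe detected throughout, were not detected. The nearest patterns were Zfp606, Fam168a and Tns2 (r 0.93, 0.91 and 0.91). Map6, another microtubule-stabilizing protein, went the other way: the probe that represents it was detected on no B array and on all L and P arrays, and it was at least 2.28-fold lower in B than in P (adjusted p = 0.00243) and at least 2.03-fold lower than in L (adjusted p = 0.000773, limma).

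Tubb3, the class III beta-tubulin of neurons, was detected on B1 alone. It read 5.90, 5.04, 5.24 and 4.94 in B1 to B4, 5.09, 5.59 and 5.70 in L1 to L3, and 5.32, 4.71 and 5.17 in P1 to P3, so the groups overlapped near background. No fold is given for it. Of the 4 other beta-tubulins tested, none passed the test in any of the 3 comparisons, with 1 at an unadjusted p under 0.05 in each B comparison and 0 in L against P. Tubb5, a beta-tubulin of dividing cells, averaged 14.53 in B and 14.56 in P.

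Nes encodes nestin, the intermediate filament of neural progenitors, which many cultured and regenerating cells also make. One of its probes read 10.18, 9.86, 9.31 and 10.18 in B1 to B4, 10.17, 10.33 and 10.47 in L1 to L3, and 10.25, 10.26 and 10.30 in P1 to P3. All B arrays were below the P arrays, B1 and B4 only reached the lowest L array, and B3 was the lowest of all. The difference was -0.39 (SE 0.22) relative to P and -0.44 (SE 0.23) relative to L. The other probe, which represents the gene, gave -0.43 (SE 0.22) and -0.47 (SE 0.17), and the probes correlated at r = 0.68. Brd8, Smarca4 and Rnf138 followed the pattern most closely (r 0.98, 0.96 and 0.93). Vim, which encodes vimentin, another filament protein of progenitors and mesenchymal cells, was higher in B by 0.83 than in P (adjusted p = 0.0296) and by 1.16 than in L (adjusted p = 0.0288).

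The glial genes showed small differences. Mbp encodes myelin basic protein, which compacts the myelin sheath. Its detected probe read 7.99, 7.53, 7.91 and 8.11 in B1 to B4, 8.51, 8.24 and 8.22 in L1 to L3, and 8.19, 8.15 and 8.11 in P1 to P3. The B arrays lay below all L arrays and reached the lowest P array only at B4. The difference was -0.26 (SE 0.17) relative to P, -0.44 (SE 0.18) relative to L, and L exceeded P by 0.17 (SE 0.14). The other 4 Mbp probes, 1 of them on the same transcript record, were not detected on any array. Agrn, Plxnb2 and H3c7 had the most similar patterns (r 0.94, 0.94 and 0.93).

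Cnp encodes a phosphodiesterase abundant in the membranes of oligodendrocytes. The probe that represents it read 7.39, 7.07, 7.60 and 7.15 in B1 to B4, 6.87, 6.93 and 6.81 in L1 to L3, and 6.70, 7.31 and 6.66 in P1 to P3. B arrays lay above all L arrays but overlapped with P, where P2 stood above the other P arrays. The difference was 0.41 (SE 0.21) over P and 0.43 (SE 0.17) over L. The other probe gave -0.16 (SE 0.18) and 0.24 (SE 0.14), so that the probes pointed in different directions against P (r = 0.48 over 10 arrays). Cryl1, Dlg5 and Spata2l were the nearest patterns (r 0.95, 0.94 and 0.93).

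Gja1 encodes the connexin of astrocyte gap junctions, which many epithelial and mesenchymal cells also make. It read 13.34, 13.44, 13.35 and 13.36 in B1 to B4, 13.45, 13.37 and 13.15 in L1 to L3, and 13.37, 13.32 and 13.29 in P1 to P3. The groups overlapped, and the difference was 0.04 (95% interval -0.26 to 0.34) for B over P, 0.05 (-0.27 to 0.37) for B over L and -0.01 (-0.32 to 0.30) for L over P. With median scaling in place of quantile normalization the first was -0.13. Gjc1, the other connexin detected on every B and P array, averaged 9.23 in B and 8.99 in P and did not pass (adjusted p = 0.428 from limma). The closest patterns to Gja1 were Ubox5, Ppcdc and Tmem121 (r 0.87, 0.86 and 0.86).

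**Figure D3:**
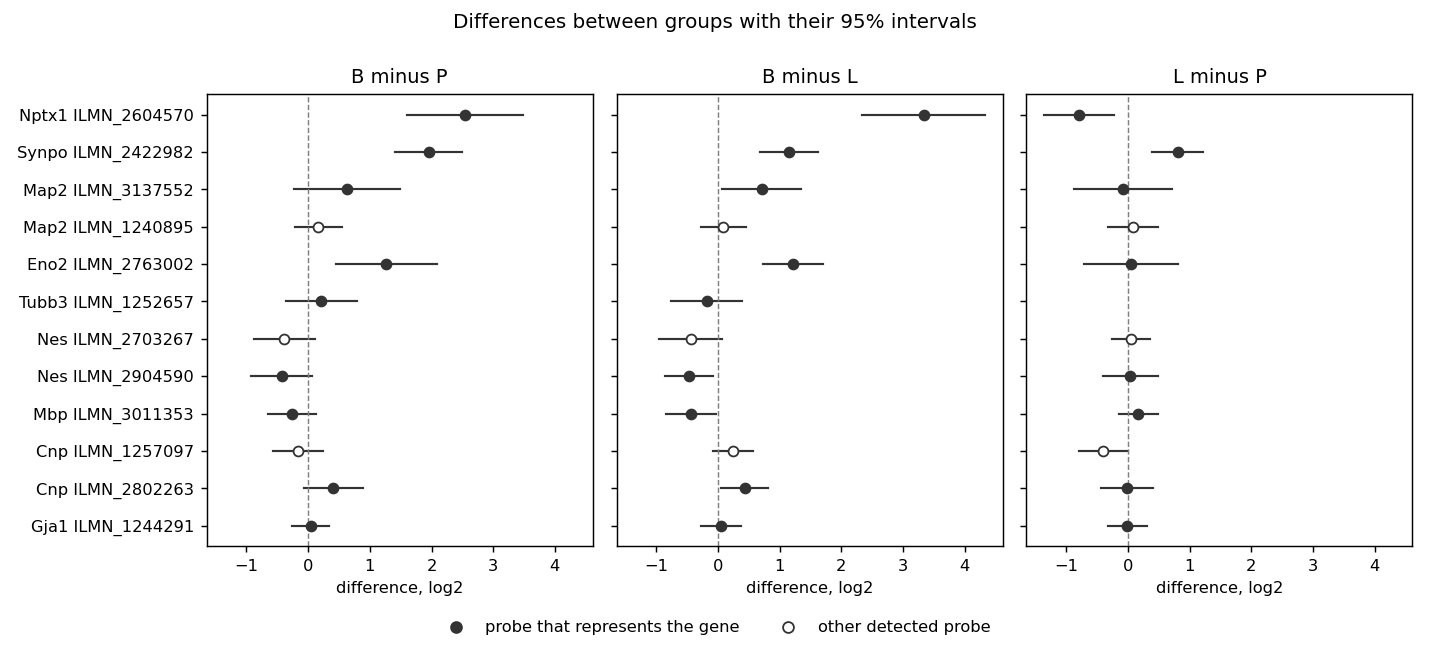
Log2 differences (x axis) with 95% intervals for the 12 detected probes (y axis) in B minus P, B minus L and L minus P. The Nptx1, Synpo and Eno2 intervals lie above 0 in both B comparisons, and those of Gja1 cross 0 in all 3.

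Across the 9 genes, 3 passed the threshold of an adjusted p under 0.05 in B against P (Nptx1, Eno2 and Synpo, all higher), where 14.4% of the 9352 genes tested did so, 7.53% higher and 6.91% lower. In B against L the same 3 genes passed, where 8.07% of 9423 genes did so, 3.83% higher and 4.23% lower. In L against P none of the 8 genes tested passed, where 0.412% of 8974 did so, 0.379% higher and 0.0334% lower. Since the genes were chosen with these differences known, nothing is read from the counts. Overlap was counted on the probe that represents each gene. The B arrays lay wholly above the P arrays for 3 genes and wholly below for none, against 14.7% and 15.7% of all genes. They lay wholly above the L arrays for 4 and wholly below for 2, against 12% and 12.9%. For Nes the counted probe lay wholly below L but not P, and the other probe wholly below P but not L. The other Cnp probe overlapped with L. L lay wholly above P for 2 genes and wholly below for 1, against 10.3% and 9.93%. The median difference over the 9 genes was 0.41 in B against P and 0.43 in B against L, and -0.01 and 0.00 over all genes tested. The counts also moved with the arrays used: Eno2 did not pass in B against P when any 1 array was left out, and in B against L neither Eno2 nor Synpo passed without L1, L2 or L3, with differences of 1.21 to 1.22 for Eno2 and 1.09 to 1.22 for Synpo.

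Other genes of the same kinds were read from 6 lists (neuronal cytoskeleton, synapse, pentraxins and AMPA receptors, astrocyte, oligodendrocyte, and neural progenitor genes). All lists were chosen with earlier results of these data known, so their counts and calls are a description. The 6 lists held 117 genes in all, of which 105 had a probe. Only 29 were detected and tested in B against P, of which 7 were higher, 1 lower and 21 did not pass, beside the 7.53% higher and 6.91% lower of all genes tested. Their median difference was 0.27, against -0.01 for all genes. Camk2a, Camk2b, Cplx2, Cspg4, Glul, Kif5c, Ncam1, Sv2a and Vamp1 entered through detection in B alone. Only Bsn and Mal entered through detection in P alone. The filter thus let in more genes through B than through P. It acts on these counts and on this median, and nothing is read from them. Kif5c, a neuronal kinesin motor, was detected on all 4 B arrays and on no P or L array, and was at least 1.29-fold higher than in P (adjusted p = 0.00768) and at least 1.39-fold higher than in L (adjusted p = 0.0189). Rab3a, a GTPase of synaptic vesicles, was higher by 0.92 than in P (adjusted p = 0.0411) and by 0.97 than in L (adjusted p = 0.0469), and lost its call in each comparison without any 1 of 6 of the 7 arrays (all but B2; differences 0.75 to 1.13 against P and 0.79 to 1.18 against L). With the array number as a replicate block, its adjusted p against L was 0.0608. Camk2b, a subunit of a synaptic calcium-dependent kinase, was detected on 3 B arrays and no P array, and was at least 1.13-fold higher. Its adjusted p of 0.0166 from limma, like those of Kif5c, is for the difference in normalized values and not for the bound. The Camk2b call was lost on the authors' processed values, where detection on every array of 1 group was asked for, and with the replicate block.

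Among glial genes of these lists, Pmp22, a membrane protein of peripheral myelin, was higher in B than in P by 2.64 (adjusted p = 0.00904 from limma). The probe that represents it was detected on all B arrays and 1 of 3 P arrays, so no fold is given. L also lay above P by 2.14, which did not pass (adjusted p = 0.0649). A second probe, detected on all 10 arrays, averaged 10.84 in B, 10.27 in L and 7.96 in P. Pdgfra, the growth factor receptor of oligodendrocyte precursors and of fibroblasts, was 5.27-fold higher in B than in P (adjusted p = 0.0168 from limma). B3 was the highest array at 11.45, with the other B arrays at 9.18 to 9.43. L lay above P by 1.32 (adjusted p = 0.0661) and B above L by 1.08 (adjusted p = 0.212), and neither passed. Aldoc, an aldolase of astrocytes, was higher in B than in P by 1.29 (SE 0.26, adjusted p = 0.0151 from limma). Its difference of 0.80 over L did not pass (adjusted p = 0.0584). Dll1, a ligand of Notch, was lower in B than in P by 1.06 (difference -1.06, adjusted p = 0.0411 from limma). It was near background, detected on 1 of 4 B and 2 of 3 P arrays, with values of 4.81 to 5.72 and 5.75 to 6.78. Dll1 lost its call without any 1 of 6 arrays (all but B4, with differences of -1.29 to -0.77). Kif5c and Pmp22 kept their calls against P when each array was left out in turn. Aldoc lost its call without P1 or P3 (differences 1.11 to 1.55 over the 7 fits), Camk2b without P1 or P2 (0.99 to 1.29), Pdgfra without P1, P2 or P3 (1.87 to 2.62), and Vim without B1, P1, P2 or P3 (0.68 to 0.94).

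In B against L, 30 of the 105 genes were tested, 3 were higher (Kif5c, Rab3a and Vim), none was lower and 27 did not pass. Of the 30, 10 were at an unadjusted p under 0.05 by limma, the 3 called genes included. Of all genes tested in that comparison 8.07% passed, 3.83% higher and 4.23% lower. Kif5c lost its call without L1 or L2 (1.09 to 1.45) and Vim without B1, L1 or L2 (0.94 to 1.40). With the replicate block 3 were again called, Kif5c, Vim and Aldoc (adjusted p = 0.0492), in place of Rab3a. In L against P, 25 were tested and none passed by limma, with 6 at an unadjusted p under 0.05. The share of all genes at that unadjusted p was not counted in either comparison, so nothing is read from these counts. Of the 10 REST complex genes with a probe, 9 were tested, and Rest itself was not among those tested. Sin3b, a corepressor scaffold, was higher in B than in L by 0.76 (adjusted p = 0.027 by limma), a call lost without B1, L1, L2 or L3 (0.66 to 0.86). Hdac2, a deacetylase of this complex, averaged 12.41 in B and 12.53 in P. Beside all of these differences stand those of the epithelial markers given above (Krt14 and Cldn7 lower in B in both comparisons, Cdh1 against P and Krt19 against L) and, in B against L, the lower P2ry12, and their part in them was not tested.

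**Figure D4:**
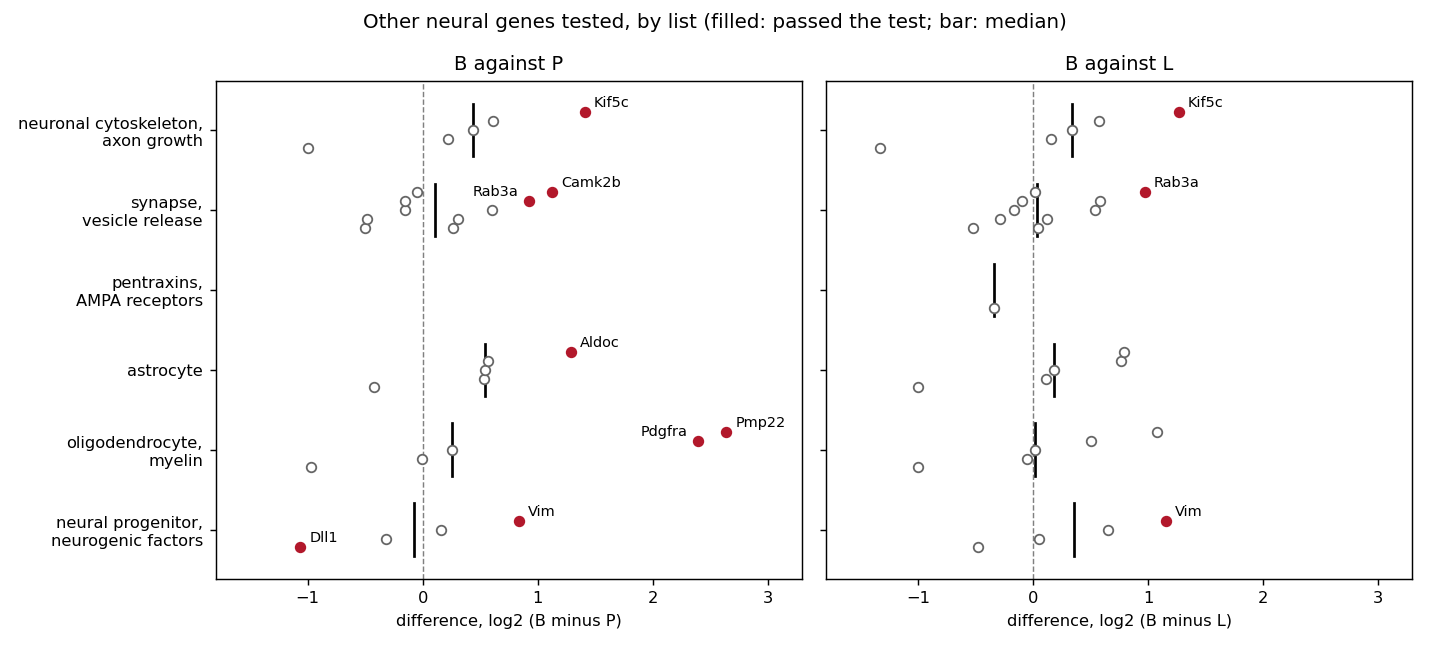
Log2 differences (x axis) of the other neural genes tested, in B against P and B against L, by list (y axis); filled points passed limma at an adjusted p under 0.05, open points did not, and bars give the list median. Pmp22 and Pdgfra lie farthest to the right in B against P.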

How the data were processed

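RNA of 10 sublines was hybridised to Illumina MouseWG-6 v2.0 BeadChips. The authors extracted intensity values with GenomeStudio, and per the file headers the deposited intensities are averages over the beads of a probe, before normalization, each with a detection p-value. For the second table the authors used lumi (version not given in the sources used here), filtered on detection, stabilized the variance, normalized by robust splines, and deposited values close to log2 for 17550 probes.

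The deposited intensities were background-corrected from the detection p-values and quantile-normalized with neqc of limma 3.58.1 (R 4.3.3, offset 16). Probes detected at a p of 0.01 or less on at least 1 array of the compared groups entered; of the probes of a gene, the 1 whose interquartile range over the 10 arrays was largest was tested. Of 17550 detected probes, 14973 had 1 gene symbol, 7 several and 2570 none; the last 2 kinds were left out. Each pair of groups was fitted on its own arrays with limma (lmFit and eBayes, two-sided), with Benjamini-Hochberg adjustment over all genes tested and a threshold of 0.05. Differences, standard errors and intervals of the 9 genes come from a second fit of the same kind, over all detected probes and not 1 probe a gene. The calls come from the first fit, and in the second Eno2 did not pass the threshold in B against P. A gene not detected in 1 group has only a bound on its fold, taken from the faintest signal detected on each of that group's arrays. The adjusted p printed with such a bound comes from the normalized values, background readings included, and the bound itself was not tested. The number of arrays limits the precision, and the slide of an array was not known. The test was tested on simulated data before use.

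The 9 genes and all lists were chosen with earlier results of these data known. Of the other genes, the 2 largest called differences per list, comparison and direction, 1 bright member of each family and the 3 most similar patterns per gene were named. Beta-tubulins, enolases, connexins, microtubule-associated proteins, intermediate filaments, synaptopodin partners and the REST complex were the families read. Desmin (Des), in the filament family, was at least 1.19-fold lower in B than in L (adjusted p = 0.0445), a call lost with the replicate block (adjusted p = 0.0859) and without any 1 of 6 of the 7 arrays (all but L1; differences -1.25 to -0.70).

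Groups share array numbers, and neither labels nor methods call them pairs. The deviations from the group means correlated at 0.14 to 0.21 in the 3 same-numbered pairs of B and L arrays, against -0.11 to 0.06 for other B and L pairs, so the blocked fit is given where it changed a call of B against L. No L or P array has the number 4, so B4 adds nothing to a blocked difference. Without B4 and with no block, Cldn7, Des and Rab3a also lost their calls against L (adjusted p = 0.0688, 0.0742 and 0.0788 by limma). A call changed by the block is therefore not read as an effect of the array numbers. Same-numbered B and P arrays (-0.12 to 0.04) and L and P arrays (-0.10 to 0.09) did not correlate in this way. Alternatives were no background correction, an offset of 50, median scaling, the authors' processed values, other filters, the probe of the highest mean, 1 model for all arrays, the methods' t-test with a random variance model, the block, and leaving out each array.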

Additional observations from a re-analysis of the deposited data

Results flagged for a closer look

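Among the 24 probes, 2 had 1 B array far from the other 3, where chance sets about 1 in 20 groups apart. One Cnp probe (ILMN_1257097) read 6.75 in B4 against 6.95 to 6.98 in the other B arrays, a gap of 0.864 of the range. One Mbp probe (ILMN_1227299), detected on no array, read 4.49 in B2 against 4.61 to 4.63, a gap of 0.861 of the range.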

How the results depend on the processing

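The 26 differences of the 9 genes were recomputed under the alternatives that could give them, 18 for each B comparison and 17 for L against P. Tubb3 had a value under 16 in each B comparison, since its probe was left out without B1 and where detection on every array of 1 group was asked for. Of the 456 values, 444 moved by less than 1 SD between arrays, 12 moved further, and no called difference changed sign. The difference of Nptx1 lay between 1.58 and 2.91 in B against P and between 1.83 and 3.70 in B against L, and that of Synpo between 1.68 and 2.13 and between 1.01 and 1.32. Since these genes were chosen on the same arrays, their calls under the alternatives support nothing. The cause of the changes below was not tested.

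In B against P, where 1350 genes, 8 genes of the neural lists and 3 of the 9 genes passed, 543 genes and 5 list genes passed by the methods' t-test at an unadjusted p under 0.001, 5 list genes passed with no detection filter, and 703 genes passed with the replicate block. In B against L, with 760 genes and 3 list genes, 368 genes and 1 list gene passed by the methods' t-test at that threshold, 1146 genes and 6 list genes with all 10 arrays in 1 model, 5 list genes with no background correction and 1 with no detection filter. The replicate block gave 664 genes there. In L against P, with 37 genes and no list gene, 169 genes, 2 list genes and Synpo (1 of the 9) passed with no background correction, 155, 2 and 1 with an offset of 50, and 204, 2 and 1 with median scaling. In the same comparison 92 genes and 2 list genes passed where detection on every array of 1 group was asked for, 113 and 2 by the methods' t-test at p under 0.001, 1 list gene on the authors' processed values, 9 genes with the replicate block, and 0 with no detection filter or in 1 model.

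Leaving out each array in turn gave 330 (without P1) to 1410 (without B4) genes in B against P, with 2 to 8 list genes, 130 (without L2) to 839 (without B4) in B against L, with 0 to 5 list genes and 1 to 3 of the 9, and 0 (without L1) to 124 (without P2) in L against P, with 0 to 1 list genes. Probes near background, such as those of Tubb3, limit what can be read from them.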
